A study of Mus musculus with 8 samples.

Results

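CD8+ T cells sorted from B16.SIY.dsRed tumors with surface LAG3 were compared with CD8+ T cells sorted from the same tumors without it. The LAG3+ side held the 4 arrays whose titles carry LAG3+, and the LAG3- side held the other 4 arrays of the series, so all 8 arrays of the study entered. Of 7893 genes tested, 588 had all 4 arrays of one gate beyond all 4 arrays of the other, 368 of them higher in LAG3+ cells and 220 lower.

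B16.SIY.dsRed is a line of mouse melanoma cells made to express SIY, a model antigen, and dsRed, a red fluorescent protein. It was engrafted into female C57BL/6 mice, and the tumors of each experiment were pooled on day 14. No group had a further genotype or treatment. The LAG3+ gate joined cells with both 4-1BB and LAG3 (4-1BB+LAG3+) and cells with LAG3 but no 4-1BB (LAG3+ 4-1BB-), for which the labels give no PD-1 status. The LAG3- gate joined cells with PD-1 but neither of the other receptors (PD-1+) and cells without any of the 3 (triple-negative). Each population had 1 array from each of 2 experiments. The populations of an experiment came from shared mouse pools, so p-values measure the spread between sorted populations and pools, not between animals, and 8 arrays limit the precision.

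LAG3 is an inhibitory receptor of activated T cells. It binds MHC class II, and its level rises on T cells that meet antigen repeatedly, as happens in tumors and chronic infection. 4-1BB is a costimulatory receptor of recently triggered T cells, and PD-1 is a second inhibitory receptor. Naive and resting memory T cells instead carry the factors KLF2 and TCF7, which keep them circulating and out of division.

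Between 7282 and 8671 of 25697 probes were detected on the LAG3+ arrays, against 5522 to 9044 on the LAG3- arrays. The 4 LAG3+ arrays resembled one another, with mean correlations across genes of 0.923 to 0.941 within their gate, against 0.783 to 0.834 for the LAG3- arrays. Each LAG3- array correlated more with the LAG3+ arrays (means of 0.796 to 0.874) than with the other LAG3- arrays, so the LAG3- gate was no coherent group. The PD-1+ arrays stood apart, also from each other, with a correlation of 0.771, the lowest of any pair of arrays. They had the fewest detected probes of their experiment (6404 and 5522). Their weights in limma's array weighting were 0.474 and 0.324, against 0.858 to 3.31 for the other arrays. That weighting used 1 mean per gate, so a difference between the 2 populations of a gate could lower weights too. The counts of each gene list are also given without the PD-1+ arrays. Summed levels of 11 macrophage and monocyte markers reached 48.1 to 163.2 on LAG3+ arrays, against 71.0 to 1375 on LAG3- arrays, with the highest sums on the PD-1+ arrays. Those of 11 dendritic cell and class II markers were 284.9 to 519.1 on LAG3+ arrays, against 923.2 to 1555 on LAG3- arrays. These sums include Ccr7, a homing receptor gene not specific to dendritic cells, with mean log2 signals of 7.03 on LAG3+ and 8.2 on LAG3- arrays. They therefore cannot be read as dendritic cell or class II signal alone. Those of 7 melanoma markers were 196 and 2282 on 4-1BB+LAG3+ arrays 1 and 2, and 414.6 and 2187 on LAG3+ 4-1BB- arrays 1 and 2. They were 718.2 and 4391 on PD-1+ arrays 1 and 2, and 126.7 and 98.7 on triple-negative arrays 1 and 2. Outside the triple-negative cells, the melanoma sums were thus higher in experiment 2 in each population. Those of 6 B cell markers were 11.5 to 79.5 on LAG3+ arrays, against 45.1 to 279.3 on LAG3- arrays, and Cd79b, detected on 2 LAG3+ and 4 LAG3- arrays, differed by -2.13 ± 0.64 (log2; limma, adjusted p = 0.209). Those of 5 NK cell markers were 65.3 to 169 on LAG3+ arrays, against 46.3 to 336.7 on LAG3- arrays, and Tyrobp was detected on 0 LAG3+ and 3 LAG3- arrays. Pmel, Tyrp1, Lyz2 and Cd14 were detected on all 8 arrays, and the endothelial genes Pecam1 and Kdr on 3 of each gate. Csf1r was detected on 3 LAG3+ and 4 LAG3- arrays, Arg1 on 3 and 2, Apoe on 2 and 3, and Dct on 4 and 3. Tyr, C1qc, Itgam, Flt3, Itgax, Cd79a, Ms4a1, Ncr1 and Col1a1, further defining genes of these cells, were detected on no array. The part of other cells in the results below was not tested, and in sorted bulk samples fewer cells of a type and less RNA per cell cannot be told apart.

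The transcript of the gate was examined first. Lag3 had log2 signals of 9.12 and 9.56 in 4-1BB+LAG3+ cells and 9.39 and 8.99 in LAG3+ 4-1BB- cells, against 8.41 and 8.92 in PD-1+ cells and 4.64 and 4.32 in triple-negative cells. All 4 LAG3+ arrays were thus above all 4 LAG3- arrays, but the lowest LAG3+ array exceeded the highest PD-1+ array by only 0.08. The PD-1+ cells, sorted without surface LAG3, had a Lag3 transcript level near that of the LAG3+ cells and far from that of the triple-negative cells. The mean difference of 2.69 ± 1.01 (log2, standard error) missed the threshold of 0.05 in limma (adjusted p = 0.294). An exact two-sided permutation test of 4 arrays against 4 gave p = 0.0286, the smallest its 70 splits allow, and 0.2 after adjustment over the 7 genes of the sort. Within the LAG3- gate, Lag3 was higher in PD-1+ than in triple-negative cells by 4.18 ± 0.36 (log2; limma, adjusted p = 0.0198).

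The other genes of the sort overlapped between the gates. Tnfrsf9, which encodes 4-1BB, averaged 8.27 in LAG3+ and 6.17 in LAG3- arrays, and PD-1+ array 2 (8.16) lay above both LAG3+ 4-1BB- arrays (7.57 and 7.69). Pdcd1, which encodes PD-1, was dim on every array, from 4.94 to 5.26 in LAG3+ and from 4.12 to 5.39 in LAG3- arrays. Cd8b1 and Cd3e, which encode parts of the CD8 coreceptor and of the CD3 complex, were bright on all 8 arrays, 11.06 to 12.54 on LAG3+ and 10.92 to 12.50 on LAG3- arrays. The Cd8a probe was detected on no array, and Cd4 on 0 LAG3+ and 2 LAG3- arrays.

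In limma, with 1 mean per gate, 7 genes rose and 2 fell in LAG3+ cells (0.0887% and 0.0253% of the 7893 tested, Benjamini-Hochberg adjusted p under 0.05). All 9 were among the genes without overlap. At an unadjusted p under 0.05, 620 genes were higher and 427 lower. The number of calls depended on single arrays. Without PD-1+ array 1 there were 66 higher and 42 lower calls, and without PD-1+ array 2 there were 20 and 12. Without triple-negative array 1 there were 18 and 6, and without triple-negative array 2 there were 2 and 1. Without LAG3+ 4-1BB- array 2 there were 14 and 3. Without either 4-1BB+LAG3+ array or LAG3+ 4-1BB- array 1, 2 genes rose and none fell, with 705 to 826 genes at an unadjusted p under 0.05. Clgn and Igfbp7 were past the threshold in each of the 19 alternative settings, and the other 7 genes in 10 to 15 of them.

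Clgn, which encodes calmegin, a calnexin-like chaperone of the endoplasmic reticulum best known from male germ cells, separated the gates most evenly. Its log2 signals were 7.21 and 7.0 in 4-1BB+LAG3+ cells and 7.33 and 7.29 in LAG3+ 4-1BB- cells, against 4.14 and 4.11 in PD-1+ cells and 4.15 and 4.12 in triple-negative cells. It was detected on all 4 LAG3+ arrays and on no LAG3- array. Clgn was at least 5.83-fold higher in LAG3+ cells (limma, adjusted p = 0.000531, range over the alternatives 2.05e-05 to 0.0186), where the bound sets the LAG3+ mean against the detection floor of the LAG3- arrays. Fold changes are on a log2 scale with an offset, which compresses the changes of dim genes.

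Igfbp7, which encodes a secreted protein that binds insulin-like growth factors, had the widest gap of any gene with a higher level in LAG3+ cells. Its log2 signals were 9.93 and 9.15 in 4-1BB+LAG3+ cells and 8.73 and 8.19 in LAG3+ 4-1BB- cells, against 4.17 and 4.25 in PD-1+ cells and 4.84 and 4.51 in triple-negative cells. The lowest LAG3+ array exceeded the highest LAG3- array by 3.35 on the log2 scale. Igfbp7 rose in LAG3+ cells (limma, adjusted p = 0.00262, range over the alternatives 0.00128 to 0.031). It was detected on only 1 of the 4 LAG3- arrays. Against the mean of its own value there and the detection floors of the others, it was at least 18.5-fold higher in LAG3+ cells. Both 4-1BB+LAG3+ arrays were above both LAG3+ 4-1BB- arrays.

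**Figure D1:**
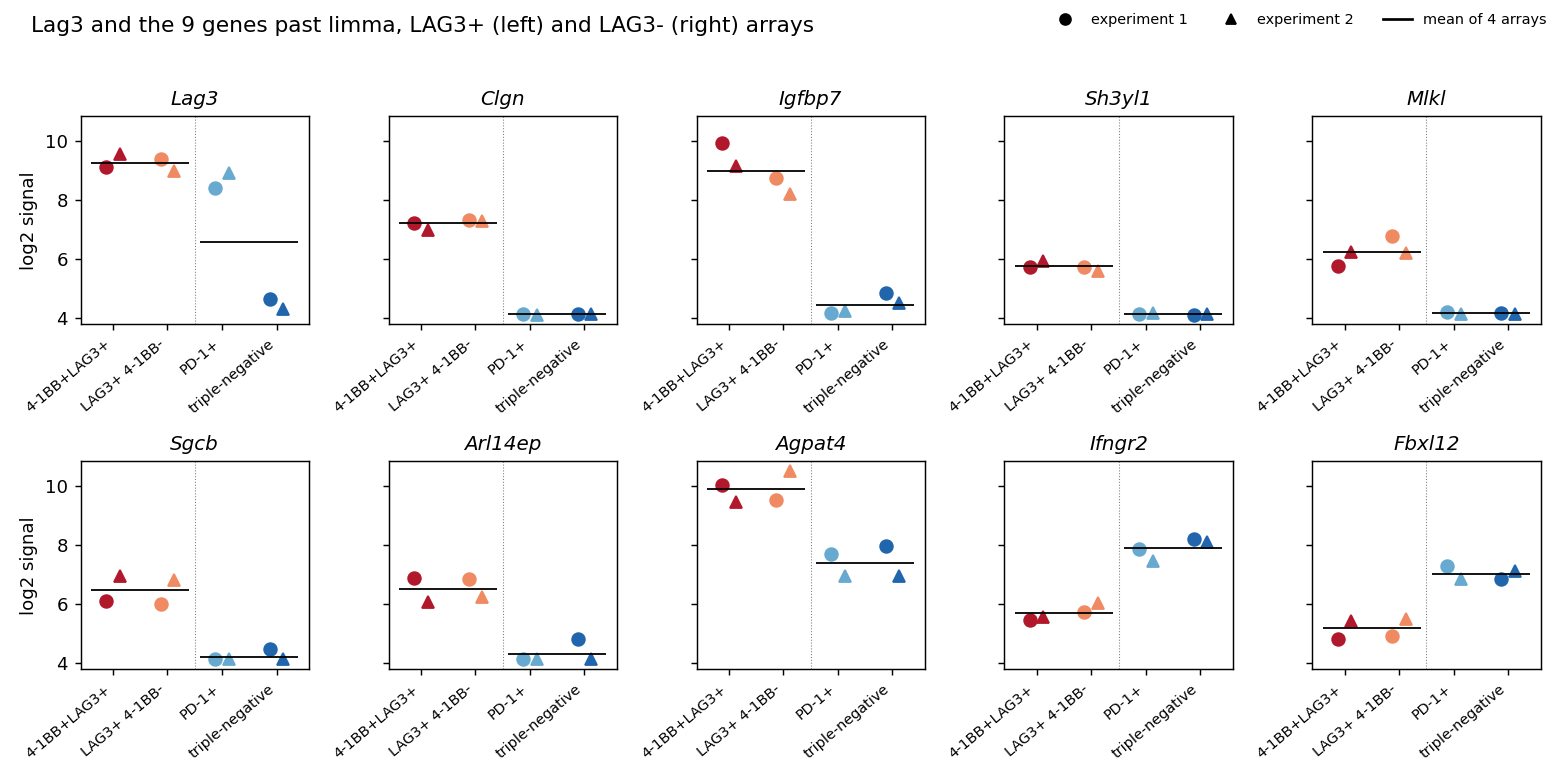
Log2 signal (y axis) of Lag3 and of the 9 genes past limma's threshold on each of the 8 arrays, by sorted population (x axis, LAG3+ populations left of the dotted line); circles are experiment 1, triangles experiment 2, and horizontal lines are means of 4 arrays. The PD-1+ arrays of Lag3 (8.41 and 8.92) lie just under its LAG3+ arrays, while for Clgn they lie with the triple-negative arrays, at 4.11 to 4.15.

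The other 5 genes that rose were lower in signal or in change. Agpat4, an acyltransferase of phospholipid synthesis, had 10.05, 9.47, 9.54 and 10.53 in the LAG3+ arrays, against 7.72 and 6.97 in PD-1+ and 7.98 and 6.96 in triple-negative cells. It rose by 2.49 ± 0.35 (log2; limma, adjusted p = 0.0458), and with the experiment as a block the adjusted p was 0.058. Agpat4 was detected on all 8 arrays, so its difference is one of level. Mlkl, the pseudokinase that carries out necroptosis, had 5.75, 6.23, 6.80 and 6.21 in the LAG3+ arrays, against 4.14 to 4.22 in the LAG3- arrays, on none of which it was detected. Mlkl was at least 3.00-fold higher in LAG3+ cells (limma, adjusted p = 0.0255, 0.0533 with the block).

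Sgcb (beta-sarcoglycan, a membrane protein of the dystrophin complex) had 6.12, 6.97, 6.01 and 6.83 in the LAG3+ arrays, against 4.13 to 4.47 in the LAG3- arrays. It was detected on 1 LAG3- array and was at least 3.45-fold higher in LAG3+ cells (limma, adjusted p = 0.0255), but a second Sgcb probe, detected on 2 arrays, differed by -0.54. Arl14ep, a partner of the small GTPase ARL14, had 6.88, 6.07, 6.85 and 6.25 in the LAG3+ arrays, against 4.14 to 4.81 in the LAG3- arrays. It too was detected on 1 LAG3- array, and was at least 3.31-fold higher in LAG3+ cells (limma, adjusted p = 0.0323). Sh3yl1, a phosphoinositide-binding protein, had 5.75, 5.93, 5.74 and 5.60 in the LAG3+ arrays and was detected on no LAG3- array. Sh3yl1 was at least 2.13-fold higher in LAG3+ cells (limma, adjusted p = 0.0255). None of these 7 genes passed limma between the PD-1+ and triple-negative cells. The model that called them counts such a difference as spread, so their selection favoured this outcome.

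The 2 genes that fell were Ifngr2 and Fbxl12. Ifngr2, the signalling chain of the interferon gamma receptor, had 5.47 and 5.55 in 4-1BB+LAG3+ cells and 5.75 and 6.04 in LAG3+ 4-1BB- cells, against 7.87 and 7.45 in PD-1+ cells and 8.22 and 8.13 in triple-negative cells. The gates lay well apart and the probe was detected on all 8 arrays. Ifngr2 fell by 2.21 ± 0.25 on the log2 scale (limma, adjusted p = 0.0255, 0.0417 with the block, range over the alternatives 0.0059 to 0.123). Fbxl12, an F-box subunit of a ubiquitin ligase, had 4.83, 5.44, 4.94 and 5.51 in the LAG3+ arrays, against 7.30, 6.87, 6.86 and 7.14 in the LAG3- arrays. Fbxl12 fell by 1.86 ± 0.25 on the log2 scale (limma, adjusted p = 0.0364, 0.0533 with the block), and a second probe differed by -1.31 with overlap between the gates.

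Ifngr1, the ligand-binding chain of the same receptor, was ordered differently. It had 7.74, 7.28, 8.14 and 7.93 in the LAG3+ arrays, against 8.14 and 8.09 in PD-1+ cells and 9.37 and 9.62 in triple-negative cells. The PD-1+ arrays lay among the LAG3+ arrays, and the difference between the gates was -1.03 ± 0.41 (log2; limma, adjusted p = 0.315). Among the 2881 genes detected on all 8 arrays, Ifngr1 had the lowest Pearson correlation with Lag3 over these arrays, -0.958. Next were Tpst2 (-0.958), a tyrosylprotein sulfotransferase, Trib2 (-0.948), a pseudokinase, and Dync1h1 (-0.938), the heavy chain of cytoplasmic dynein. The highest correlations were those of Dpy30 (0.985), a subunit of histone methyltransferase complexes, Prdx1 (0.979), a peroxiredoxin, Anxa2 (0.978), an annexin, and Mtch1 (0.977), a mitochondrial carrier homolog. These correlations describe 8 arrays that fall into 2 levels of Lag3 and carry no test.

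The 588 genes without overlap were kept by their values, so their number is a description. They make up 7.45% of all tested genes, 4.66% above and 2.79% below. Detected on all 4 arrays of the higher gate were 334 of the 368 higher genes (4.23% of tested genes) and 187 of the 220 lower genes (2.37%). Of the 368 higher genes, 75 were detected on no LAG3- array and 156 on all 4. Of the 220 lower genes, 24 were detected on no LAG3+ array and 141 on all 4. The median gap was 0.22 (log2) in each direction, and many lay close to the boundary. Gins3, Ube3c and Serpinb6b were the last genes inside the boundary for higher levels, and Ankrd46, Gars and Laptm5 the first outside it, all with gaps of 0.00 after rounding. On the lower side Cebpb, Cd37 and H2-K1 were just inside, and Plekha1, Rita1 and Prkab1 just outside.

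Fewer arrays make a lack of overlap easier, so the same shares over all tested genes stand for each setting used below. With 1 LAG3+ array left out, 5.23% lay above and 3.28% below without 4-1BB+LAG3+ array 1, and 6.11% and 4.02% without 4-1BB+LAG3+ array 2. The shares were 5.88% and 4.26% without LAG3+ 4-1BB- array 1, and 7.74% and 4.62% without LAG3+ 4-1BB- array 2. With 1 LAG3- array left out they were 8.1% above and 5.75% below without PD-1+ array 1, and 7.03% and 5.71% without PD-1+ array 2. They were 8.51% and 7.31% without triple-negative array 1, and 6.4% and 4.03% without triple-negative array 2. Without both PD-1+ arrays 13.2% lay above and 12.9% below, and against the PD-1+ arrays alone 15.9% and 13.2%.

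Within the gates, these genes were spread differently. Of the 368 higher genes, 175 (47.6%) had a higher mean in PD-1+ than in triple-negative cells, against 47.3% of all tested genes. Of the 220 lower genes, 129 (58.6%) had a lower mean in PD-1+ cells, against 52.7% of all tested genes. Inside the LAG3+ gate, 256 (69.6%) of the higher genes had a higher mean in 4-1BB+LAG3+ than in LAG3+ 4-1BB- cells, against 51.5% of all tested genes. Likewise 157 (71.4%) of the lower genes had a lower mean in 4-1BB+LAG3+ cells, against 48.5% of all tested genes. Limma called 42 genes between PD-1+ and triple-negative cells (0.532%, with 1167 at an unadjusted p under 0.05) and none between 4-1BB+LAG3+ and LAG3+ 4-1BB- cells (0%, with 208 at an unadjusted p under 0.05).

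Over all 7893 tested genes, 42 (0.532%) were called between PD-1+ and triple-negative cells, and of the 588 genes a similar share, 4, were. Besides Lag3, these 4 held Slc6a6, Cyp4f18 and Cnr2, named after their values were seen. Slc6a6, the taurine transporter, had 7.92, 8.29, 7.81 and 9.01 in the LAG3+ arrays, against 4.36 and 4.25 in PD-1+ cells and 7.74 and 7.48 in triple-negative cells, so the PD-1+ cells alone were low. Its call between PD-1+ and triple-negative cells (limma, adjusted p = 0.0459) was lost with the experiment as a block (adjusted p = 0.0563), and the other 3 remained at 0.0499. Cyp4f18, a cytochrome P450 that acts on lipid mediators, had 4.20 to 4.26 in the LAG3+ arrays, against 7.94 and 8.08 in PD-1+ cells and 4.94 and 4.44 in triple-negative cells. Cnr2, the cannabinoid receptor of immune cells, had 4.12 to 4.16 in the LAG3+ arrays, against 4.16 and 4.18 in PD-1+ cells and 6.85 and 7.74 in triple-negative cells. In these 3 genes the lack of overlap came with 1 of the LAG3- populations close to the LAG3+ arrays.

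**Figure D2:**
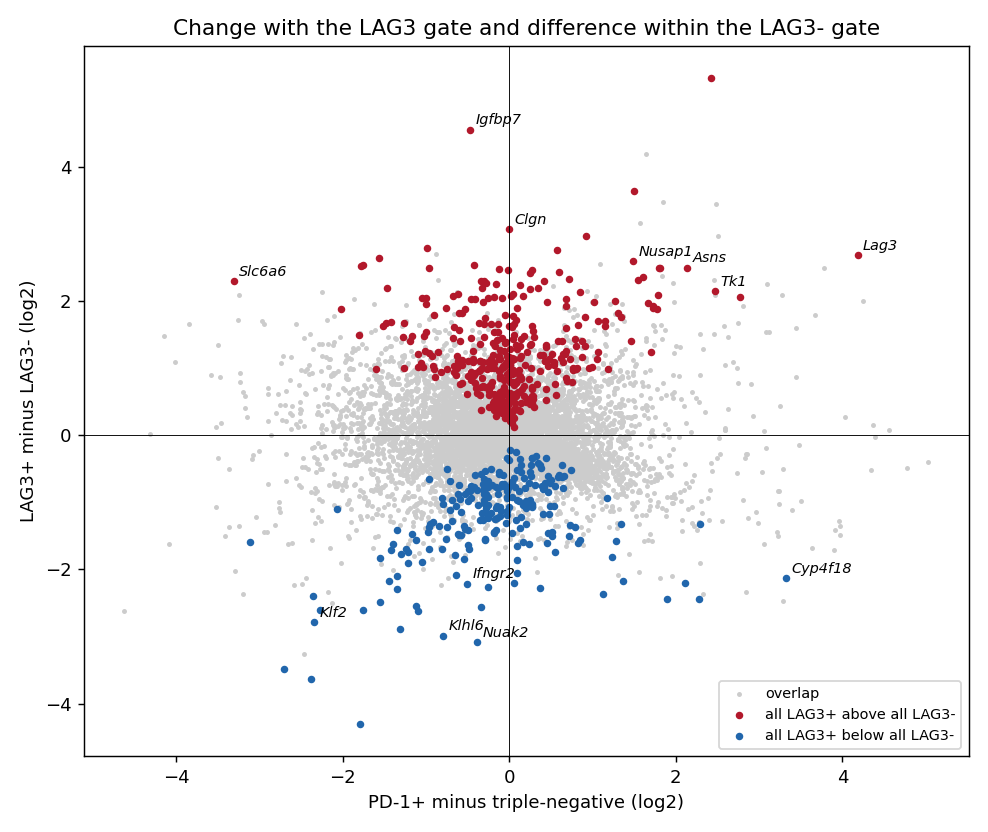
Difference of the LAG3+ mean minus the LAG3- mean (y axis, log2) against the difference of PD-1+ minus triple-negative cells (x axis, log2) for 7893 genes; red and blue points are the 368 and 220 genes without overlap between the gates. Lag3 lies far to the right (4.18), while Clgn and Igfbp7 lie near 0 on the x axis.

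Of 24 naive and memory T cell genes on the array, 19 passed the detection filter, and all 19 had a lower mean in LAG3+ cells. Their median difference was -2.09 (log2), against 0.01 over all tested genes. Without overlap were 11 of 19 (57.9%), all lower, against 2.79% of all tested genes. No member passed limma with 1 mean per gate. At an unadjusted p under 0.05, 16 were lower, against 427 of all 7893 tested genes. With 1 mean per population 9 passed, all lower, against 36 of 7893. Klf2, the factor that drives the exit receptor gene S1pr1, had 6.03, 6.78, 6.85 and 7.05 in the LAG3+ arrays, against 7.71 and 8.87 in PD-1+ and 10.60 and 10.66 in triple-negative cells. The PD-1+ arrays lay between the LAG3+ and the triple-negative arrays. Klhl6, a ubiquitin ligase adaptor of lymphocytes, had 7.23, 6.60, 8.75 and 9.19 in the LAG3+ arrays, against 10.26, 10.80, 11.63 and 11.02 in the LAG3- arrays. Txnip, an inhibitor of glucose uptake, differed by -2.55 ± 0.45 (log2; limma, adjusted p = 0.0715). Tcf7, Il7r, Satb1, Id3, Foxo1, Nsg2 and Dgka were further members without overlap. Without both PD-1+ arrays 17 of 19 lay below with no overlap, against 12.9% of all tested genes. Against the PD-1+ arrays alone 18 of 19 had a lower mean and 12 lay below with no overlap, against 13.2% of all tested genes.

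**Figure D3:**
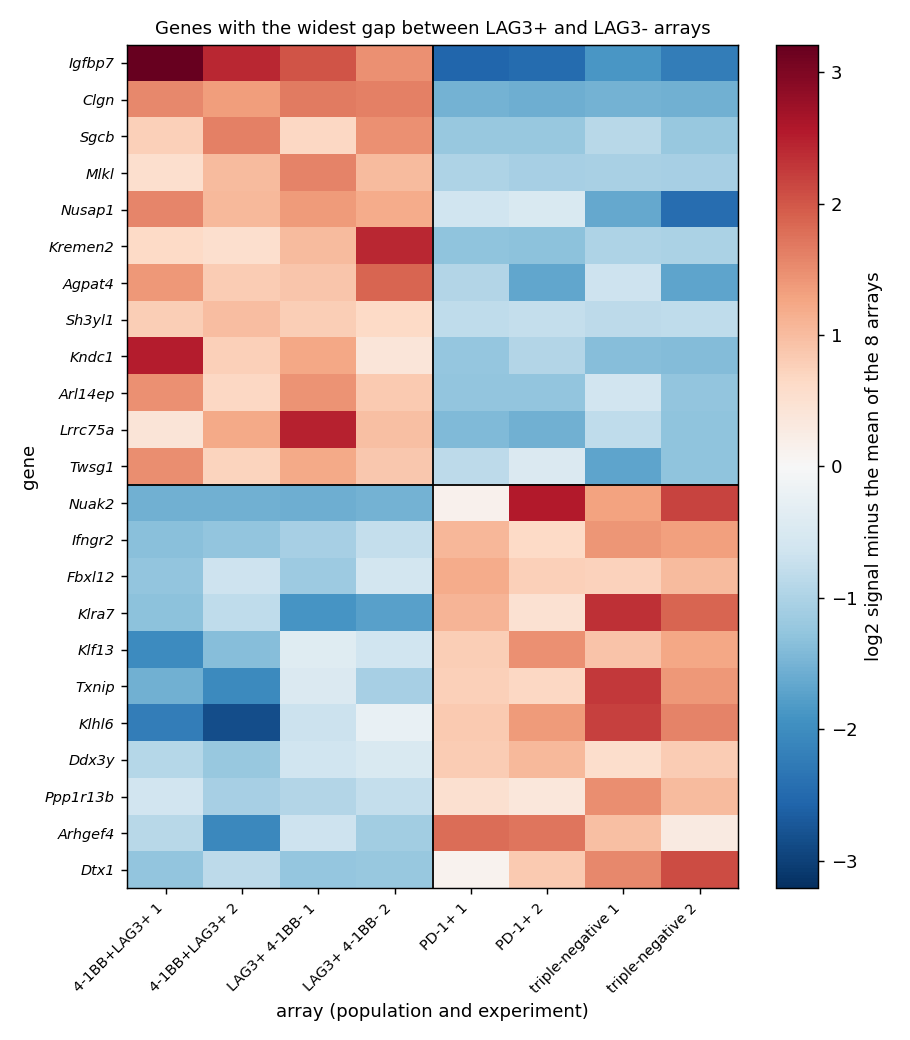
Log2 signal minus the mean of the 8 arrays (colour scale) for the 12 genes with the widest gap above (top rows) and 11 of the widest gaps below (bottom rows); columns are the arrays, LAG3+ left of the vertical line. Klhl6 reads lower on the 4-1BB+LAG3+ arrays (7.23 and 6.60) than on the LAG3+ 4-1BB- arrays (8.75 and 9.19), whereas Clgn and Sh3yl1 are even within each gate.

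The remaining genes of the widest gap were of mixed function. Among those higher, Kremen2 and Twsg1, regulators of WNT and BMP signalling, had 5.96 to 7.86 and 7.97 to 8.74 in the LAG3+ arrays, against 4.13 to 4.45 and 5.57 to 6.80 in the LAG3- arrays. Kndc1, a kinase-like protein studied in neurons, was at least 4.74-fold higher in LAG3+ cells. Lrrc75a had 6.13 to 8.17 in the LAG3+ arrays, against 4.16 to 4.88 in the LAG3- arrays. None of these 4 passed limma (adjusted p 0.0548 to 0.0715). Among those lower, Nuak2, a kinase of the AMPK family, was not detected on any LAG3+ array and was at least 6.92-fold lower there (limma, adjusted p = 0.0625). Klra7, an inhibitory Ly49 receptor, had 4.25 to 5.34 in the LAG3+ arrays, against 6.64 to 8.49 in the LAG3- arrays. Klf13, a zinc finger factor, had 4.25 to 5.87 in the LAG3+ arrays, against 7.05 to 7.73 in the LAG3- arrays. Arhgef4, a guanine nucleotide exchange factor, and Ppp1r13b, a partner of p53, differed by -2.37 ± 0.42 and -1.69 ± 0.29 (log2; limma, adjusted p 0.0715 and 0.0683).

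Cell cycle genes were frequent among those higher in LAG3+ cells. Of 29 tested genes of DNA replication and nucleotide supply, 28 had a higher mean in LAG3+ cells, with a median difference of 1.12 (log2), and 13 (44.8%) had no overlap, all higher, against 4.66% of all tested genes. Of 34 tested genes of mitosis and the kinetochore, 33 had a higher mean, with a median of 1.12, and 11 (32.4%) had no overlap, all higher. No member of either list passed limma with 1 mean per gate. At an unadjusted p under 0.05, 17 and 16 were higher, against 620 of all 7893 tested genes. With 1 mean per population 2 and 4 passed, all higher, against 41 of 7893. Against the PD-1+ arrays alone the 2 medians were 0.71 and 0.52 (log2), and 14 and 13 members had no overlap, where 15.9% of all tested genes lay above. Within the LAG3- gate the same lists had medians of 0.44 and 0.83 (log2) for PD-1+ minus triple-negative cells.

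Among the replication genes, Tk1, the salvage enzyme thymidine kinase, had 8.07, 7.51, 8.25 and 7.74 in the LAG3+ arrays, against 6.95 and 7.0 in PD-1+ and 4.82 and 4.20 in triple-negative cells. A second Tk1 probe, also without overlap, differed by 0.92 where the first differed by 2.15. Rrm1, the large subunit of ribonucleotide reductase, had 9.70, 8.78, 9.09 and 8.99 in the LAG3+ arrays, against 8.17 and 7.76 in PD-1+ and 6.76 and 6.58 in triple-negative cells. Cdc6, which loads the replicative helicase, differed by 2.43 ± 0.50 (log2; limma, adjusted p = 0.0929). Mcm2, Mcm5, Mcm6, Cdc45, Chaf1b, Fen1, Lig1, Uhrf1 and Ezh2 were further members without overlap.

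Among the mitotic genes, Nusap1, a spindle protein, had the widest gap. Its log2 signals were 8.85, 8.33, 8.65 and 8.48 in the LAG3+ arrays, against 6.64 and 6.79 in PD-1+ and 5.64 and 4.83 in triple-negative cells (difference 2.60 ± 0.43; limma, adjusted p = 0.0677). Kntc1, a kinetochore protein of the spindle checkpoint, had 7.97, 8.26, 7.85 and 6.97 in the LAG3+ arrays, against 6.15 and 6.17 in PD-1+ and 4.46 and 4.26 in triple-negative cells. In both genes the PD-1+ arrays lay between the other groups. Cdca5 (sororin), which holds sister chromatids together, had 6.57, 5.69, 6.56 and 6.78 in the LAG3+ arrays, against 4.25 to 4.90 in the LAG3- arrays. Spc25, a subunit of the NDC80 complex, had 6.23, 5.75, 5.71 and 5.0 in the LAG3+ arrays, against 4.15 to 4.32 in the LAG3- arrays, and a second probe detected on 3 arrays differed by only 0.07. Without both PD-1+ arrays, 23 of 29 replication genes and 25 of 34 mitotic genes lay above with no overlap, against 13.2% of all tested genes. Without PD-1+ array 1 alone, 17 of the mitotic genes did, against 8.1% of all tested genes.

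The promoters of these 4 mitotic genes are shown because cell cycle genes commonly carry a CHR element, through which the DREAM complex holds them down in resting cells. RefSeq promoter windows of 300 bases (GRCm38.p6, read 5′ to 3′ on the strand of the gene, from 250 bases before the start) were searched on both strands for TTTGAA and TTCGAA. Capitals mark the matches.
Nusap1 (chr2:119618048-119618347, plus strand): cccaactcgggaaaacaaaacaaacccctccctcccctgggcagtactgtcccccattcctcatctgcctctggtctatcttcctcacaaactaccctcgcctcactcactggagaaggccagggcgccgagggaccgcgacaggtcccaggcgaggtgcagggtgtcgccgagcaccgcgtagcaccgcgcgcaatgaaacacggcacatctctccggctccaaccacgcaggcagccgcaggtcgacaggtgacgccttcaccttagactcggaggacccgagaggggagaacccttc
Kntc1 (chr5:123749476-123749775, plus strand): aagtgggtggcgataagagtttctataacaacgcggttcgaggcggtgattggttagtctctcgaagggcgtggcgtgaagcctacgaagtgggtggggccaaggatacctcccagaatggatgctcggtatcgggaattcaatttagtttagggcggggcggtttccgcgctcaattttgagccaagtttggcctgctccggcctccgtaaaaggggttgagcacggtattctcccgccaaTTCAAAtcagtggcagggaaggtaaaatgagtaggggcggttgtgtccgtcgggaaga
Cdca5 (chr19:6084847-6085146, plus strand): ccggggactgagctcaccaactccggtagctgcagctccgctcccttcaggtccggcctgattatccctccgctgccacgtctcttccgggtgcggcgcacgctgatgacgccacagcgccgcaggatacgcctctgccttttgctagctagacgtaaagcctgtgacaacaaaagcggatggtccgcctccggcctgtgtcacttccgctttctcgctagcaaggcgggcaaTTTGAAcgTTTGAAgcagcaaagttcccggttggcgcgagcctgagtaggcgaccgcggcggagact
Spc25 (chr2:69206164-69206463, minus strand): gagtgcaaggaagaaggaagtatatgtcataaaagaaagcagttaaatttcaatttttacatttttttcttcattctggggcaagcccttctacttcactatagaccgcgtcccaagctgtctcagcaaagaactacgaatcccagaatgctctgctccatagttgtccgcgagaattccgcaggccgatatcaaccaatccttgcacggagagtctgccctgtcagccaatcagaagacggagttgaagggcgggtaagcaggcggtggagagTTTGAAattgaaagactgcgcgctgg

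Cdca5 held 2 matches, at 17 and 9 bases before the start, Kntc1 held 1 on the opposite strand and Spc25 held 1 after the start. No match was found in the Nusap1 window. A match was present in 9 of 22 (40.9%) replication and mitosis genes without overlap, in 26 of 57 (45.6%) tested genes of these lists, in 17.1% of the 6294 tested genes with a window, and in 21.7% of all 27025 genes with a window. Over all 302 higher genes without overlap that had a window, the share was 21.2%. A match is a description of letters and not a site of binding.

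Genes of glycolysis and glucose uptake had a higher mean in LAG3+ cells in 14 of 15, with a median difference of 0.95 (log2). Without overlap were 4 (26.7%), all higher, against 4.66% of all tested genes, and 0 passed limma. At an unadjusted p under 0.05, 9 were higher, against 620 of all 7893 tested genes. Tpi1, triosephosphate isomerase, had 12.18, 12.48, 11.52 and 11.34 in the LAG3+ arrays, against 10.89 and 10.72 in PD-1+ and 9.27 and 8.89 in triple-negative cells, and a second probe differed by 2.02. Eno1, enolase, had 8.53 to 9.45 in the LAG3+ arrays, against 7.29 to 7.99 in the LAG3- arrays. Aldoc, an aldolase, was detected on no LAG3- array and was at least 1.90-fold higher in LAG3+ cells. Pfkp, the platelet-type phosphofructokinase, differed by 0.95 ± 0.26 (log2; limma, adjusted p = 0.16). Without both PD-1+ arrays 13 of 15 lay above with no overlap and 1 below, where 13.2% of all tested genes lay above. Without PD-1+ array 1 there were 10 above (8.1% of all tested genes), and without LAG3+ 4-1BB- array 1 there were 9 (5.88%). Against the PD-1+ arrays alone the median was 0.48 (log2).

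All 25 tested proteasome subunits had a higher mean in LAG3+ cells, with a median difference of 0.50 (log2), and 9 (36.0%) had no overlap, against 4.66% of all tested genes. Within the LAG3- gate their median for PD-1+ minus triple-negative cells was 0.07. Psmc4 and Psmd1, subunits of the regulatory particle, differed by 1.12 ± 0.27 and 1.12 ± 0.27 (log2; limma, adjusted p 0.128 each). Psma4, of the core particle, had 7.94 to 8.33 in the LAG3+ arrays, against 6.37 to 7.54 in the LAG3- arrays. None passed limma, and 10 were higher at an unadjusted p under 0.05, against 620 of all 7893 tested genes. Without both PD-1+ arrays 24 of 25 had a higher mean and 18 lay above with no overlap, against 13.2% of all tested genes.

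Of 38 tested subunits of the mitochondrial respiratory chain 34 had a higher mean, with a median of 0.35 (log2), and 5 (13.2%) lay above with no overlap, against 4.66% of all tested genes. The number was 9 without LAG3+ 4-1BB- array 2 (7.74% of all tested genes) and 11 without triple-negative array 2 (6.4%). There were 9 above and 1 below without both PD-1+ arrays, against 13.2% and 12.9%. Cox5a, of complex IV, had 8.55, 9.0, 8.67 and 8.43 in the LAG3+ arrays, against 6.85 to 8.01 in the LAG3- arrays. Of 15 tested genes of amino acid synthesis and ATF4 targets, 3 (20%) lay above and 1 (6.67%) below with no overlap, against 4.66% and 2.79% of all tested genes. Below were 2 without LAG3+ 4-1BB- array 2 (4.62% of all tested genes). Without both PD-1+ arrays 3 lay above and 2 below (20% and 13.3%, against 13.2% and 12.9% of all tested genes). Psat1, of serine synthesis, differed by 1.63 ± 0.27 and Asns, asparagine synthetase, by 2.50 ± 0.65 (log2; limma, adjusted p 0.0677 and 0.149). Mthfd2, of mitochondrial folate metabolism, differed by 1.22 ± 0.37 (adjusted p = 0.208), while Ddit3, the stress factor CHOP, differed by -0.83 ± 0.28 (log2; limma, adjusted p = 0.257). Of 12 cholesterol synthesis genes, 10 had a higher mean. With all 8 arrays 1 of them (8.33%, against 4.66% of all tested genes) had no overlap, Sqle, squalene epoxidase, at 5.73 to 7.37 in the LAG3+ arrays, against 4.29 to 4.90 in the LAG3- arrays. That number rested on single arrays: 4 lay above without PD-1+ array 1 (8.1% of all tested genes), 3 without triple-negative array 1 (8.51%), 2 without PD-1+ array 2 (7.03%) and 6 without both PD-1+ arrays (13.2%).

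**Figure D4:**
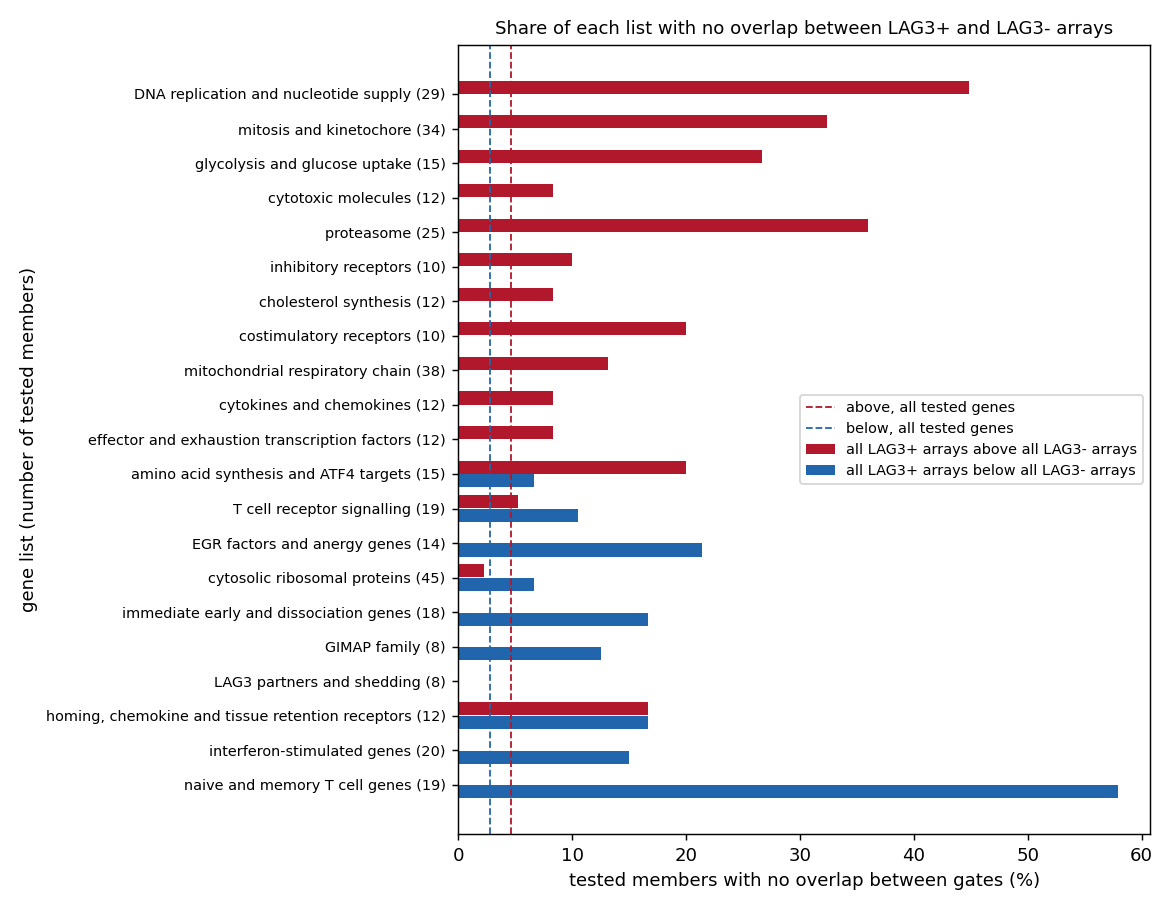
Share of the tested members of each gene list with all LAG3+ arrays above (red) or below (blue) all LAG3- arrays (x axis, percent); dashed lines are the shares over all 7893 tested genes, 4.66% and 2.79%. Replication, proteasome and mitosis genes reach 44.8%, 36.0% and 32.4% above, and naive and memory genes 57.9% below.

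Of 10 tested inhibitory receptors, Lag3 alone (10%, against 4.66% of all tested genes) had no overlap. There were 3 above without PD-1+ array 1 (8.1% of all tested genes) and 2 without either 4-1BB+LAG3+ array, LAG3+ 4-1BB- array 2, PD-1+ array 2 or either triple-negative array (5.23% to 8.51%). Leaving out both PD-1+ arrays gave 4 above and 1 below (13.2% and 12.9%). Havcr2, which encodes TIM-3, had 9.71, 9.56, 9.39 and 8.19 in the LAG3+ arrays, against 8.85 and 4.46 in PD-1+ and 5.45 and 4.17 in triple-negative cells, so PD-1+ array 1 lay among the LAG3+ arrays. Of 10 costimulatory receptors, Tnfrsf4 (OX40) and Tnfrsf18 (GITR) had no overlap (20%, against 4.66% of all tested genes). There were 4 above without triple-negative array 1 (8.51% of all tested genes), and 3 above and 1 below without both PD-1+ arrays (13.2% and 12.9%). Tnfrsf4 had 8.38, 8.91, 7.34 and 7.33 in the LAG3+ arrays, against 6.28 and 6.56 in PD-1+ and 4.39 and 5.24 in triple-negative cells (difference 2.37 ± 0.55; limma, adjusted p = 0.121). Of 12 cytotoxic genes only Serpinb6b, a protease inhibitor just inside the boundary, had no overlap (8.33%, against 4.66% of all tested genes). Above were 6 without PD-1+ array 1 (8.1% of all tested genes), 4 without LAG3+ 4-1BB- array 2 (7.74%) and 2 without LAG3+ 4-1BB- array 1 (5.88%), with 1 below in each of the first 2 settings. With both PD-1+ arrays left out, 7 lay above and 2 below (13.2% and 12.9%). Gzmd, a granzyme, had 11.21, 9.85, 8.57 and 7.28 in the LAG3+ arrays, against 7.53 and 4.18 in PD-1+ and 4.23 and 4.20 in triple-negative cells, with a second probe that differed by 0.56 where the first differed by 4.19.

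Of 12 homing and retention receptors, 2 lay above and 2 below with no overlap (16.7% each, against 4.66% and 2.79% of all tested genes). Cxcr6, a chemokine receptor of tissue T cells, lay above by 1.78 ± 0.33 (log2; limma, adjusted p = 0.076). Gpr183, an oxysterol receptor of lymphoid tissue, and Cd69, an early activation and retention marker, lay below, by -1.89 ± 0.43 and -1.77 ± 0.47 (log2; limma, adjusted p 0.114 and 0.154). There were 5 receptors below without PD-1+ array 1 (5.75% of all tested genes), and 4 without either LAG3+ 4-1BB- array or triple-negative array 2 (4.03% to 4.62%). Leaving out both PD-1+ arrays gave 6 below (12.9%).

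Of 12 effector and exhaustion factors, 1 (8.33%, against 4.66% of all tested genes) had no overlap with all 8 arrays, Irf8, at 7.73 to 9.02 in the LAG3+ arrays, against 5.85 to 7.55 in the LAG3- arrays. Above were 3 without LAG3+ 4-1BB- array 1 (5.88%), 3 without PD-1+ array 2 (7.03%) and 2 without 4-1BB+LAG3+ array 2 (6.11%). Without both PD-1+ arrays 3 lay above and 2 below (13.2% and 12.9% of all tested genes). Spp1, osteopontin, the cytokine with the largest difference, had 10.47, 9.70, 8.89 and 7.31 in the LAG3+ arrays, against 7.88 and 5.86 in PD-1+ and 4.64 and 4.14 in triple-negative cells, and so overlapped. Mif, the cytokine without overlap, had 12.13 to 13 in the LAG3+ arrays, against 11.30 to 11.96 in the LAG3- arrays. It was 1 of 12 (8.33%, against 4.66% of all tested genes). The number rose to 4 without LAG3+ 4-1BB- array 2 (7.74% of all tested genes) and 3 without PD-1+ array 1 (8.1%). It was 2 without LAG3+ 4-1BB- array 1 (5.88%) and 8 without both PD-1+ arrays (13.2%). Against the PD-1+ arrays alone 1 lay above and 3 below (8.33% and 25%, against 15.9% and 13.2% of all tested genes). The median of the list there was -0.11 (log2), against 0.35 with all 8 arrays.

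Of 19 genes of T cell receptor signalling, Zap70, the kinase that binds the receptor chains, lay above and Lat, its adaptor substrate, and Nfkbia lay below (5.26% and 10.5%, against 4.66% and 2.79% of all tested genes). There were 2 above and 4 below without both PD-1+ arrays (13.2% and 12.9% of all tested genes). Lat had 7.75 to 8.85 in the LAG3+ arrays, against 8.89 to 9.25 in the LAG3- arrays. Of 14 EGR factors and anergy genes, 3 (21.4%, against 2.79% of all tested genes) lay below with no overlap. Without PD-1+ array 1, 2 lay above as well (8.1% of all tested genes). Without both PD-1+ arrays 2 lay above and 4 below (14.3% and 28.6%, against 13.2% and 12.9% of all tested genes). Socs3, an inhibitor of cytokine signalling, had 6.89, 7.09, 8.31 and 8.26 in the LAG3+ arrays, against 8.87 and 9.87 in PD-1+ and 11.41 and 10.85 in triple-negative cells. Dtx1, a NOTCH-linked ubiquitin ligase, had 4.19 to 4.62 in the LAG3+ arrays, against 5.57 to 7.55 in the LAG3- arrays, and Dgka, diacylglycerol kinase alpha, differed by -1.74 ± 0.50 (log2; limma, adjusted p = 0.187), with a second probe at -1.99.

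Of 20 tested interferon-stimulated genes, 16 had a lower mean in LAG3+ cells, with a median of -0.91 (log2), and 3 (15%) lay below with no overlap, against 2.79% of all tested genes. Against the PD-1+ arrays alone 12 had a lower and 8 a higher mean, and 4 lay below and 2 above with no overlap, against 13.2% and 15.9% of all tested genes. With both PD-1+ arrays left out, 18 had a lower mean, 9 lay below and 1 above (12.9% and 13.2%). Irgm1, an interferon-induced GTPase, had 9.37, 9.34, 9.48 and 9.62 in the LAG3+ arrays, against 10.77, 10.30, 11 and 11.15 in the LAG3- arrays, and a second probe differed by -1.50. Gbp2, another such GTPase, and Irf7, the factor that amplifies interferon production, differed by -1.56 ± 0.33 and -1.30 ± 0.24 (log2; limma, adjusted p 0.0942 and 0.076). None passed limma. At an unadjusted p under 0.05, 7 were lower and 1 higher, against 427 and 620 of all 7893 tested genes. The number below with no overlap was 6 without LAG3+ 4-1BB- array 2 (4.62% of all tested genes) and 5 without LAG3+ 4-1BB- array 1 (4.26%), and the list's median was -0.42 with no detection filter. Immediate early and dissociation genes were lower in 16 of 18, with a median of -0.73 (-0.35 against the PD-1+ arrays alone). Of them 3 (16.7%, against 2.79% of all tested genes) lay below with no overlap. Below were 6 without PD-1+ array 1 (5.75% of all tested genes) and 8 without both PD-1+ arrays (12.9%). Zfp36, which destabilizes cytokine messages, had 8.71 to 9.73 in the LAG3+ arrays, against 10.52 to 11.56 in the LAG3- arrays, and Junb had 7.01 to 8.30 in the LAG3+ arrays, against 8.50 to 9.80 in the LAG3- arrays.

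All 8 tested partners of LAG3 overlapped between the gates, where 7.45% of all tested genes did not. Without triple-negative array 2, 4 of the partners lay below with no overlap (4.03% of all tested genes). Without both PD-1+ arrays 1 lay above and 1 below (13.2% and 12.9% of all tested genes). H2-Aa, H2-Ab1, H2-Eb1 and Cd74, which build and chaperone MHC class II, differed by -1.47 ± 0.54, -1.52 ± 0.60, -1.13 ± 0.52 and -1.57 ± 0.49 (log2; limma, adjusted p 0.214 to 0.403). Cd74 had 6.18, 5.80, 6.48 and 6.10 in the LAG3+ arrays, against 8.53 and 8.51 in PD-1+ and 7.53 and 6.27 in triple-negative cells. Lyz2, a defining macrophage marker, had 4.55 to 5.85 in the LAG3+ arrays, against 7.34 and 9.16 in PD-1+ and 5.23 and 6.69 in triple-negative cells. Cd74 and Lyz2 were thus both highest on the PD-1+ arrays. Summed macrophage markers were 71.0 and 169.2 on triple-negative arrays 1 and 2, against 48.1 to 163.2 on the LAG3+ arrays. Summed dendritic cell and class II markers, which include Ccr7, were 1105 and 923.2 there, against 284.9 to 519.1 on the LAG3+ arrays. The part of macrophages in these differences was not tested. Lgals3, a lectin ligand of LAG3, had 9.59 to 10.63 in the LAG3+ arrays, against 10.22 and 10.97 in PD-1+ and 7.05 and 8.65 in triple-negative cells. Adam17, a protease that sheds LAG3, was near background on 4-1BB+LAG3+ array 2 (4.17) and on both PD-1+ arrays (4.44 and 4.16), and at 6.82 to 7.85 on the other arrays. Lck, the kinase bound by the CD4 and CD8 coreceptors, differed by -0.41 ± 0.33 (log2; limma, adjusted p = 0.627).

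Cytosolic ribosomal proteins had a median of -0.26 (log2) over 45 tested members, with 36 lower, 3 (6.67%) below and 1 above without overlap, against 2.79% and 4.66% of all tested genes. Without PD-1+ array 1 there were 14 below (31.1%, against 5.75% of all tested genes), without triple-negative array 1 there were 6 (13.3%, against 7.31%) and without 4-1BB+LAG3+ array 2 there were 5 (11.1%, against 4.02%). Above were 2 without LAG3+ 4-1BB- array 2 (7.74% of all tested genes). With both PD-1+ arrays left out, 17 lay below (37.8%, against 12.9%) and 1 above. Against the PD-1+ arrays alone the median was -0.05 (log2) and 24 of 45 were lower. Rps27 had 7.04 to 7.94 in the LAG3+ arrays, against 8.10 to 10.41 in the LAG3- arrays. Rpl6, the member above, was detected on no LAG3- array and ranged over 5.21 to 8.05 in the LAG3+ arrays, with the highest value on 4-1BB+LAG3+ array 2. Of 8 GIMAP genes, GTPases of lymphocyte survival, Gimap6 alone had no overlap (12.5%, against 2.79% of all tested genes that lay below). It had 9.79 to 10.52 in the LAG3+ arrays, against 10.80 to 11.64 in the LAG3- arrays. Without both PD-1+ arrays 2 lay below and 1 above (12.9% and 13.2% of all tested genes). No list of markers of other cell types, from melanoma to red cells, held a tested gene without overlap, against 7.45% of all tested genes. With 1 to 6 tested genes per list, this absence says little. Summed CD4 and regulatory T cell markers were 597.6 to 1857 on LAG3+ arrays, against 387 to 941.6 on LAG3- arrays. Among them Ctla4, which conventional CD8+ T cells also express, had 9.21 to 10.84 in the LAG3+ arrays, against 8.40 to 9.80 in the LAG3- arrays. Foxp3 was dim but detected on 4 LAG3+ and 4 LAG3- arrays (means 4.92 and 5.07), and Zbtb7b on 1 and 3. The part of regulatory T cells was not tested.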

How the data were processed

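Total RNA of sorted cells was hybridised to a 1-colour Illumina mouse bead array. The deposited probe intensities were unnormalized and came with a detection p-value per probe, per the file headers. The authors' normalized intensities served as an alternative only. The scanner software and the making of these normalized values are not stated in the sources used here.

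With limma 3.58.1 in R 4.3.3, neqc corrected the background, using negative controls it inferred through the detection p-values, quantile-normalized the arrays and gave log2 values with an offset of 16. The platform table paired 23978 of the 25697 probes with 1 gene symbol and 0 with several, and did not list 1719. Symbols were updated for 23962 through RefSeq gene names, and of the unlisted probes 1038 were named by accession and 681 kept the deposited name, giving 17830 names. The brightest probe stood for a gene. Genes whose probe reached a detection p under 0.05 on 2 or more arrays were tested, which kept 7893 and removed 9937. Of 117 tested genes named by rule, 25 had another detected probe, and for 9 of these one differed by under 0.5 times as much or in the other direction.

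Gates were compared with limma's lmFit and eBayes, 1 mean per gate, no block, two-sided, with 6 residual and 2.98 prior degrees of freedom. Contrasts inside each gate used 1 mean per population. A gene not detected on any array of a gate has only a bound there: its fold sets the brighter mean against each dim array's lowest detected signal, or the gene's own if higher. A bound for a gene detected on 1 array of the dim gate was computed alike. On simulated arrays with 50 genes changed per size, 11, 33, 44 and 49 were recovered at log2 changes of 1, 2, 3 and 4, with 4 false calls. The simulated arrays held no difference between the 2 populations of a gate, which the real comparison counts as spread. These counts are therefore not recovery rates for the real comparison.

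Named genes were the genes of the sort, all calls, the 12 widest gaps each way among genes detected on all arrays of the higher gate, up to 4 members of each list without overlap, the list member with the largest change where fewer than 2 had none, LAG3 partners, the 3 genes on each side of each boundary and the 8 extreme correlates of Lag3. The members and lists were chosen with earlier results of these data known. Experiment numbers mark shared mouse pools and pair the samples: deviations of same-numbered arrays correlated at 0.092 to 0.222 in all 6 pairs of populations. The block changed 3 of 9 calls, given beside them. A few genes named by rule are not reported here.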

Additional observations from a re-analysis of the deposited data

Results flagged for a closer look

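In a gate of 4 arrays, a value was singled out when its distance to the nearest of the other 3 was, as a share of the whole range, above Dixon's critical value for 4 samples. This held for 18 of 234 gene and gate pairs (7.69%), where chance gives about 1 in 20. The array with the most was 4-1BB+LAG3+ array 2, with 5. There Adam17 was low at 4.17 (others 7.45 to 7.85), and Rpl6 (8.05, others 5.21 to 5.59), Rps15 (8.44, others 8.13 to 8.17), Dtx1 (4.62, others 4.19 to 4.24) and Pdcd1 (5.26, others 4.94 to 4.98) were high. On 4-1BB+LAG3+ array 1, Mthfd2 was high at 6.83 (others 6.10 to 6.16). On LAG3+ 4-1BB- array 1, H2-Eb1 was high at 7.20 (others 5.99 to 6.16) and Tyrobp at 4.37. On LAG3+ 4-1BB- array 2, Laptm5 was high at 13.94 and Cd4 at 4.41, both by under 0.3.

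Among the LAG3- arrays, PD-1+ array 1 was high for Gzmd at 7.53 (others 4.18 to 4.23) and for Pdcd1 at 5.39 (others 4.12 to 4.27), so the transcript of the PD-1 gate stood above background on only 1 of the 2 PD-1+ arrays. Triple-negative array 1 was high for Arl14ep at 4.81 (others 4.14 to 4.16) and Sgcb at 4.47 (others 4.13 to 4.15), and low for Mif at 11.30 (others 11.88 to 11.96). Triple-negative array 2 was high for Ddit3 at 7.0 (others 6.11 to 6.23), and low for Cd8b1 at 12.08 (others 12.43 to 12.50) and H2-Eb1 at 5.92 (others 7.85 to 8.15).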

How the results depend on the processing

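Counts of calls moved far more than directions. Limma's calls, higher and lower, were 7 and 2 with the authors' values, 3 and 3 with an offset of 50, 8 and 5 with detection on at least 4 arrays, 3 and 1 without a filter, and 7 and 4 with the mean over probes. They were 171 and 163 without both PD-1+ arrays, 72 and 50 without both triple-negative arrays, 41 and 36 with population means, and 55 and 22 with array weights. With the replicate block they were 5 and 1, and with the block and population means 48 and 42. With the block, 28 genes passed between PD-1+ and triple-negative cells. Leaving out 1 array gave 2 to 66 higher and 0 to 42 lower calls. Genes without overlap numbered 1043 and 1022 without both PD-1+ arrays, 1258 and 1039 without both triple-negative arrays, 458 and 409 without a filter, and 413 to 672 and 259 to 577 with 1 array left out. Fewer arrays make no overlap easier by construction.

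Of 117 named genes, 7 changed sign in some setting, none of them past limma in the comparison of all 8 arrays. Without both triple-negative arrays the log2 difference was -0.13 for Cd3e, 0.0199 for Cd4, 0.0165 for Csf3r, -0.0387 for Gpnmb and -0.59 for Lgals3. Without both PD-1+ arrays it was -0.13 for Adam17 and 0.0248 for Cd8b1. With 1 array left out it ranged over -0.0551 to 0.164 for Cd3e, -0.163 to 0.0086 for Cd8b1 and -0.158 to 0.0698 for Csf3r. List counts with arrays left out were chosen after seeing the data and are given beside each list without both PD-1+ arrays, and without 1 array where that moved a count by over 1.5 times. Arrays carry no read depth, and signal near the detection floor limits dim genes such as Pdcd1 and Sh3yl1.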

Other observations

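Gldc, glycine decarboxylase of mitochondrial glycine breakdown, was detected on all 4 LAG3+ arrays and on 1 LAG3- array, and did not pass limma (adjusted p = 0.0889). It had 11.53, 10.93, 10.46 and 9.90 in the LAG3+ arrays, against 9.03 on PD-1+ array 1 and 4.13 to 4.19 on the other 3 LAG3- arrays. Against the mean of PD-1+ array 1's own value and the detection floors of the other 3, it was at least 31.1-fold higher in LAG3+ cells. The lowest LAG3+ array exceeded PD-1+ array 1 by only 0.87 (log2). Slc17a6, a vesicular glutamate transporter, was alike in order, with 9.0, 8.98, 8.61 and 7.71 in the LAG3+ arrays, against 7.19 on PD-1+ array 1 and 4.15 to 4.21 on the other 3. Tff1, a trefoil peptide, had 7.30, 9.27, 7.08 and 7.04 in the LAG3+ arrays, against 6.12 on PD-1+ array 1 and 4.16 to 4.30 on the others. In all 3 genes 1 PD-1+ array approached the LAG3+ gate and its replicate did not, as with Havcr2 and Gzmd. Their values were seen before they were named.

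On the lower side, Satb1, a chromatin organizer of naive T cells, and St6gal1, a sialyltransferase, were among the largest differences, at -3.64 and -3.48 (log2). Satb1 had 5.02, 5.92, 7.35 and 5.83 in the LAG3+ arrays, against 9.04 and 7.92 in PD-1+ and 10.76 and 10.96 in triple-negative cells. St6gal1 had 6.06, 4.15, 4.89 and 6.50 in the LAG3+ arrays, against 8.51 and 6.54 in PD-1+ and 10.52 and 9.94 in triple-negative cells.

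Ddx3y, which lies on the Y chromosome, was among the widest gaps although the labels give female mice. Its brightest probe was detected on all 8 arrays, with 4.85 to 5.58 in the LAG3+ arrays, against 6.63 to 7.09 in the LAG3- arrays. Its other 2 probes and the probes of Eif2s3y and Kdm5d, also Y-linked, were detected on no array, and that of Uty on 1. What the brightest probe measured was not tested.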
